A study of Caenorhabditis elegans with 2 samples.

Results

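The 10 genes described are lin-17, mig-5, apr-1, pry-1, mom-4, lit-1, wrm-1, sys-1, bar-1 and pop-1, which act in Wnt signalling and in the beta-catenin asymmetry branch of that pathway in Caenorhabditis elegans. They were chosen by name, and they are 10 of the 19973 protein-coding genes on the nuclear chromosomes in the Ensembl annotation of the assembly ce11 (WBcel235). The data are authors' peak lists from chromatin immunoprecipitation and sequencing (ChIP-seq) of CEH-82, a homeobox protein tagged with enhanced green fluorescent protein (eGFP), in L1 larvae taken whole; L1 is the larval stage that follows hatching. All animals were of strain OP212, with genotype unc-119(ed3) III and the transgene ddEx58, and of mixed sex. The samples formed 1 group of 2 biological replicates, with no treatment, no other stage and no control peak list analysed here. The labels call the transgene an insertion targeting ceh-82, while its name is that of an extrachromosomal array, and the antibody field reads ceh-82. Such arrays can be lost from some cells, as general background on this kind of transgene. Whole larvae mix all tissues, so a site bound strongly in few cells and a site bound weakly in many cannot be told apart.

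In Wnt signalling, secreted Wnt proteins bind Frizzled receptors, and Dishevelled proteins relay the signal to a complex of Axin, APC and kinases that controls beta-catenin. In the asymmetry branch, as known in C. elegans, the kinase LIT-1 and the beta-catenin WRM-1 lower the nuclear level of the TCF protein POP-1, and SYS-1 is the beta-catenin that works with POP-1 to switch on genes. The branch makes the daughters of many dividing cells different from each other, including epidermal seam cells in the larva. BAR-1 is the beta-catenin of the canonical branch, used in vulval precursor cells and in migrating neuroblasts.

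A peak was counted for a gene when it overlapped the stretch from 2000 bp upstream of the gene to its 3' end, called here the gene window. The optimal list, the authors' selection by the irreproducible discovery rate (IDR) from the replicates, held 9 peaks in the windows of 8 of the 10 genes. The strongest lay upstream of mig-5, followed by peaks at lit-1 and wrm-1, and these are shown as sequence because they carry the highest values and because lit-1 holds a pair of optimal peaks. Each line gives the 201 bases around a summit, 5' to 3' on the strand of the gene, read from the RefSeq genome of ce11. The capitals mark GAGAGA, printed as TCTCTC where it lies on the other strand, in the lit-1 sequences, and CTTTGA, the core of the TCF binding sequence, in the wrm-1 sequence. The mig-5 sequence holds none of the 4 letter strings searched.
mig-5, chrII:8185104-8185304, minus strand, signal 263: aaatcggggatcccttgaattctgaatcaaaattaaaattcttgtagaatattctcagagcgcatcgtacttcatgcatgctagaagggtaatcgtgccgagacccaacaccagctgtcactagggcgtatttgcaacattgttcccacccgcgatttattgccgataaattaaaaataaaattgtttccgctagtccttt
lit-1, chrIII:13717606-13717806, plus strand, signal 78.1: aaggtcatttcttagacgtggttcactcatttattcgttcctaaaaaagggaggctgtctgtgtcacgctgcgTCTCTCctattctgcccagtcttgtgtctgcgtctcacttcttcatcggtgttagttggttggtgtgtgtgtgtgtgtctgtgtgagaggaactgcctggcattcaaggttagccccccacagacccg
lit-1, chrIII:13712929-13713129, plus strand, signal 30.7: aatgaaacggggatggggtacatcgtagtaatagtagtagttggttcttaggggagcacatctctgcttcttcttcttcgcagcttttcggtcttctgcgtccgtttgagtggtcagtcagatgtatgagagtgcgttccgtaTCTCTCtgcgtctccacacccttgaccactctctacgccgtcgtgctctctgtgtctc
wrm-1, chrIII:5721962-5722162, plus strand, signal 65.2: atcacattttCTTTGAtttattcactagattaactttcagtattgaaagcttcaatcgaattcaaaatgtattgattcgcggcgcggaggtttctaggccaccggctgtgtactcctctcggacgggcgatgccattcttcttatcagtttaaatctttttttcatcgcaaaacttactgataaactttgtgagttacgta

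Each list ranks its peaks by the signal value that the authors' peak caller gave. This value depends on the depth of each list and serves here to describe and rank peaks within a list. Where the signals of the replicates are divided, the ratio is read only beside that of all optimal peaks. The optimal list held 3913 peaks with a median signal of 55.7, a highest of 595 and a lowest of 27.6. The list called on pooled replicates held 16974 peaks with signals from 595 down to 9.43. Replicate 1 held 24014 peaks with signals from 366 to 5.37, and replicate 2 held 30000 peaks with signals from 249 to 3.05. The files give no read counts, so the depth of each sample is unknown. To compare the replicates at equal length, the 3913 strongest peaks of each were taken as its top list. No test was run on the 10 genes, since the samples form 1 group, so the counts stand beside the same count over all genes.

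By gene window, 8 of the 10 genes had an optimal peak, and bar-1 and apr-1 had none. Over all 19973 protein-coding genes, 22.5% had one. Most of the 10 genes are long, and long windows have more room for peaks. The 2 members in window length class 4 of 5 classes of nearly equal gene number, mig-5 and wrm-1, both had an optimal peak, where 25% of all genes of that class had one. Of the 8 members in class 5, the longest, 6 had an optimal peak, where 36.2% of all genes of that class had one. The windows of the 10 genes summed to 94.6 kb and held 0.952 optimal peaks per 10 kb, while all protein-coding gene windows held 0.509 per 10 kb. The genes were chosen with results on these data known, so the excess over these backgrounds is not read as a result.

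The full pooled list put a peak in the windows of 9 of the 10 genes, where 51.4% of all genes had one. In each replicate's full list 9 members also had a peak, against 63.3% of all genes in replicate 1 and 71.3% in replicate 2. The top list of replicate 1 put a peak at 8 members, against 22.4% of all genes. The top list of replicate 2 put one at 6 members, against 22.1%, and the optimal-peak genes without one there were mom-4 and lin-17. When the optimal list was restricted to its 1956 strongest peaks, 4 members had a peak, namely mig-5, lit-1, wrm-1 and pop-1, against 13.1% of all genes.

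By summit in a promoter window, from 1000 bp upstream to 200 bp downstream of any annotated 5' end, 7 of the 10 genes had an optimal peak. This was found for 16% of all protein-coding genes. With the first 5' end of each gene alone, 5 members had one, since lit-1 and lin-17 counted through internal 5' ends. The share over all genes at that setting is not given here. The pooled list had such a summit at 9 members and at 33.7% of all genes, and the 1956 strongest optimal peaks had one at 4 members and at 9.41% of all genes. Of the 9 optimal summits, 5 lay upstream of the gene, 3 in introns of lit-1 and lin-17, and 1 in the 5' UTR of mom-4. The strongest signal at the 8 genes with an optimal peak had a median of 52.3, and over the 4486 protein-coding genes with an optimal peak the median was 63.7. The 10 genes thus include 1 very strong peak, mig-5, and otherwise peaks of middle to low rank in the list.

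**Figure D1:**
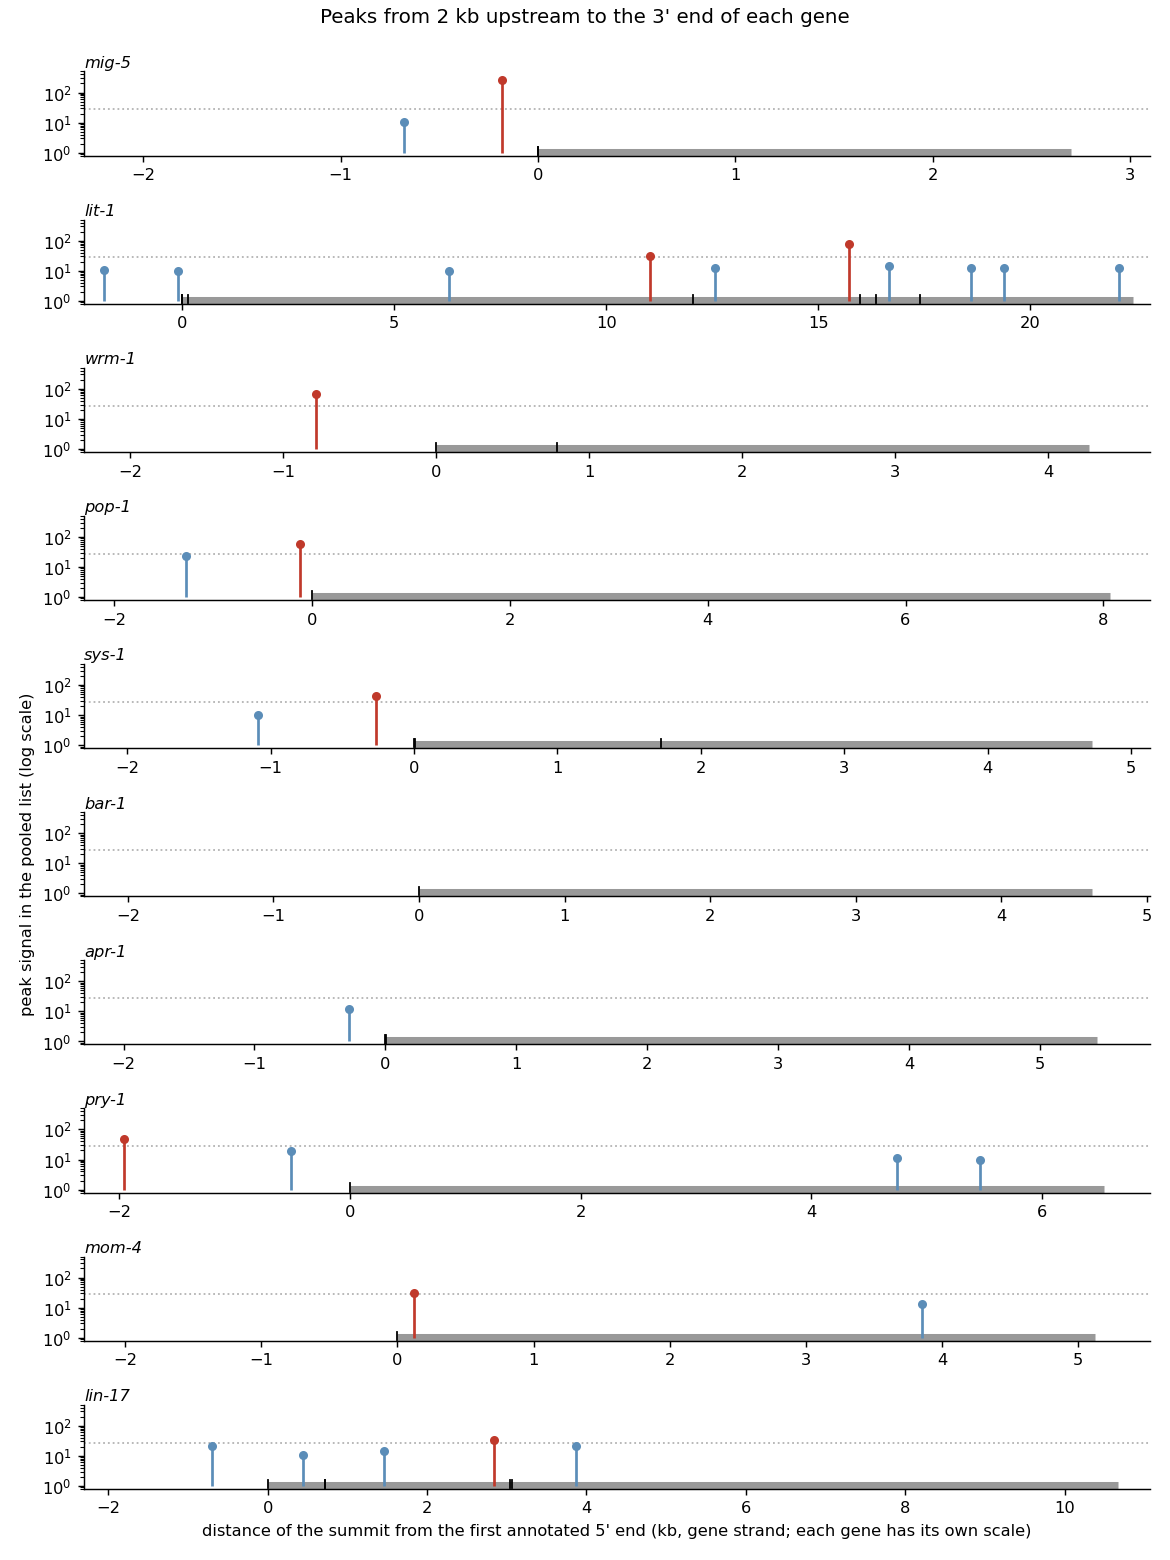
Pooled peaks along the window of each of the 10 genes. The horizontal axis is distance from the gene's first annotated 5' end in kb, each vertical line is the summit of a peak with the height of its signal on a log scale, red marks peaks of the optimal list, blue marks weaker pooled peaks, grey bars are genes, black ticks are annotated 5' ends, and the dotted line is the lowest optimal signal, 27.6. mig-5 has 1 tall peak of signal 263 next to its 5' end, lit-1 has 10 pooled peaks spread over its gene, and bar-1 has none.

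The receptor gene lin-17 encodes a Frizzled protein. Its optimal peak at chromosome I, 2709594 to 2709853, had a signal of 33.0 and rank 3341 of 3913. The peak had a signal of 20.8 in replicate 1, rank 3255, and 8.23 in replicate 2, rank 5733, outside that replicate's top list. The summit was 2841 bp inside the gene as counted from its first annotated 5' end, in an intron, and lay 195 and 229 bp upstream of a pair of internal 5' ends. The window held 4 weaker pooled peaks, with signals of 21.2, 20.4, 14 and 10.8. The strongest of these lay 697 bp upstream of the first 5' end, at rank 5023 of the pooled list. It had a signal of 15.9 in replicate 1 and 4.62 in replicate 2. The intronic one of signal 20.4 reached the top list of replicate 1 with 17.1, rank 3899, and had 4.0 in replicate 2. Each of these 3 peaks stood higher in the order of replicate 1 than in that of replicate 2.

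Among the cytoplasmic genes, mig-5 encodes a Dishevelled protein. Its peak on chromosome II, 8185123 to 8185274, had a signal of 263, rank 61 of 3913 in the optimal list. In replicate 1 it had 157, rank 66, and in replicate 2 it had 107, rank 55. The replicates placed it nearly equally, and it was first among the 9 member peaks in each. The summit lay 181 bp upstream of the nearest mig-5 5' end. This peak is shared: mig-5 and cct-1, which encodes a subunit of the cytosolic chaperonin, are transcribed away from each other with 419 bp between their 5' ends, and the summit was 239 bp upstream of cct-1. The peak cannot be assigned to either gene from its position. It was 152 bp wide, while the other 8 member peaks were all 260 bp.

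Of the scaffold genes of the complex that controls beta-catenin, pry-1 had an optimal peak and apr-1 had none. pry-1 encodes an Axin. Its optimal peak on chromosome I, 14181187 to 14181446, had a signal of 46.6, rank 2414, with 34.1 in replicate 1, rank 1944, and 18.2 in replicate 2, rank 2467. The summit lay 1957 bp upstream of the single annotated 5' end, outside the 1000 bp promoter window, and the peak extended past the edge of the gene window. A weaker pooled peak lay closer, 511 bp upstream, with a signal of 18.6 and rank 5706. apr-1, the APC gene, had 1 pooled peak, of signal 12.4 and rank 9893, 275 bp upstream of the gene. The summit of this peak also lay in the promoter window of K04G2.7, which is transcribed away from apr-1. Replicate 1 had 9.42 at that place, and replicate 2 had no peak there, its strongest in the window being 3.99 inside the gene. Neither replicate's top list held a peak at apr-1.

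The kinase branch of the pathway promotes the export of POP-1 from the nucleus. mom-4 encodes a kinase of the MAP3K class that activates LIT-1. Its optimal peak on chromosome I, 9900567 to 9900826, was the weakest of the 9, with a signal of 29.9 and rank 3653. It had 23.5 in replicate 1, rank 2869, and 5.48 in replicate 2, rank 11165. The −log10 q-value of the replicate 2 peak was 0.587. The summit lay 120 bp inside mom-4, in its 5' UTR, and the peak is shared with the divergent gene lsl-1. The 5' ends of the pair are 258 bp apart, and the summit lay 379 bp upstream of lsl-1.

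lit-1 encodes a Nemo-like kinase. Its gene spans 13701991 to 13724404 on chromosome III and has 7 annotated 5' ends. The stronger optimal peak, at 13717576 to 13717835, had a signal of 78.1, rank 1212, with 44.1 in replicate 1, rank 1373, and 33.3 in replicate 2, rank 1074. Its summit was in an intron, 259 bp upstream of the internal 5' end of transcript W06F12.1b.1. The weaker, at 13712899 to 13713158, had 30.7, rank 3578, with 18.7 in replicate 1, rank 3619, and 11.9 in replicate 2, rank 3741. It lay 1016 bp upstream of the internal 5' end of W06F12.1a.1. Near the first 5' ends of the gene the pooled list had only a peak of signal 9.73, 90 bp upstream. The lit-1 window held 10 peaks in the pooled list, 10 in replicate 1 and 21 in replicate 2. The top list of replicate 2 held 1 further peak there, of signal 12.1 and rank 3673, near an intronic peak of 12.5 in replicate 1, rank 5399.

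WRM-1, SYS-1 and BAR-1 are beta-catenins. The wrm-1 peak on chromosome III, 5721932 to 5722191, had a signal of 65.2, rank 1571, with 42.8 in replicate 1, rank 1431, and 19.8 in replicate 2, rank 2217. It lay 788 bp upstream of the gene, with no other pooled peak in the window. The sys-1 peak on chromosome I, 9984932 to 9985191, had 43.3, rank 2585, with 23.5 in replicate 1, rank 2874, and 18.7 in replicate 2, rank 2374. Its summit was 268 bp upstream of the first sys-1 5' end, and another weaker pooled peak, of signal 10, lay farther upstream. bar-1, at X 7166005 to 7170625, had no peak in its window of 6.62 kb in any of the 4 lists. Its upstream gap to the next protein-coding gene is 7015 bp, so 2000 bp do not cover it. The 2 beta-catenin genes of the asymmetry branch thus had an optimal peak and bar-1, the canonical one, had none, which is a description of 3 genes and no test of a difference. The beta-catenin gene hmp-2, which is not a member, also had an optimal peak in its gene window, of signal 95.1.

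pop-1 encodes the TCF/LEF transcription factor on which the branch acts. Its peak on chromosome I, 2830297 to 2830556, had a signal of 58.1, rank 1860, with 31.2 in replicate 1, rank 2149, and 26 in replicate 2, rank 1564. The summit was 116 bp upstream of the single annotated pop-1 5' end. It also lay inside the non-coding RNA gene W10C8.14 and 878 bp upstream of the non-coding RNA gene W10C8.8, so this peak is shared as well. A weaker pooled peak, of signal 22.4 and rank 4742, had its summit 1267 bp upstream. It had 12.6 in replicate 2, rank 3539 and so in the top list, and 6.65 in replicate 1, rank 15904.

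**Figure D2:**
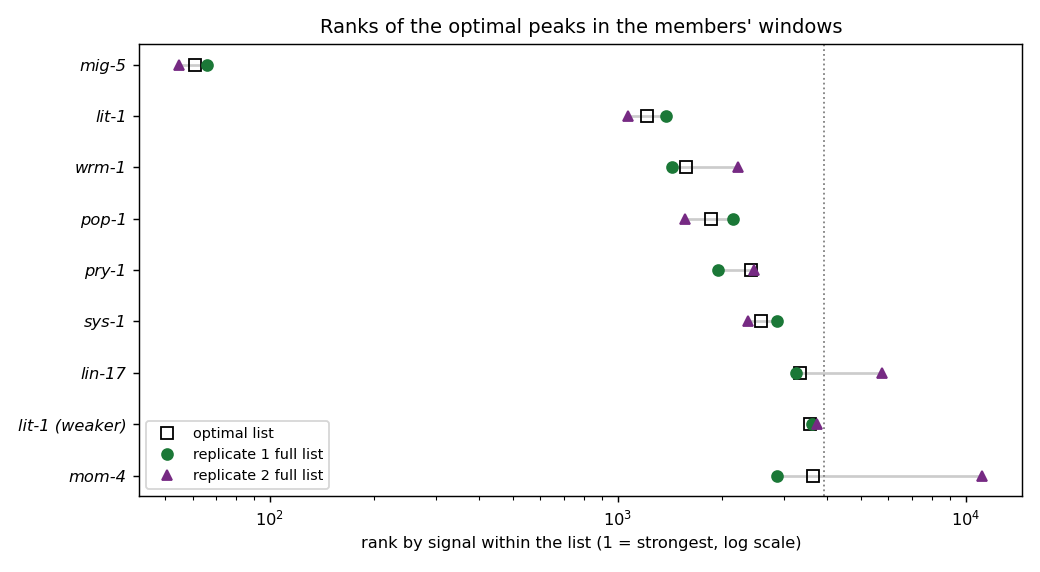
Position of the member peaks in the order of each list. The axis gives the rank of a peak in its list, on a log scale, the points give the optimal list and the full lists of replicate 1 and replicate 2, and the dotted line is rank 3913, the end of a top list. mig-5 lies at ranks 61, 66 and 55, while mom-4 lies at rank 2869 in replicate 1 and 11165 in replicate 2.

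Of the 9 optimal member peaks, 9 were in the top list of replicate 1, 7 in that of replicate 2 and 7 in both. Over all optimal peaks, 80.4% were in both. The peaks held by 1 top list alone were those of lin-17 and mom-4. The signal of replicate 1 divided by that of replicate 2 had a median of 1.56 over the 3897 optimal peaks present in both full lists, with quartiles of 1.24 and 1.99. The ratio was 1.20 at pop-1, 1.26 at sys-1, 1.32 and 1.57 at the lit-1 peaks and 1.47 at mig-5. It was 1.88 at pry-1, 2.16 at wrm-1, 2.53 at lin-17 and 4.30 at mom-4. The pop-1 ratio lay below the lower quartile, those of wrm-1, lin-17 and mom-4 above the upper one, and the others between them. The ratio of mom-4 was above that of 98.2% of optimal peaks, and that of lin-17 above that of 89.3%. In the order of the 9 member peaks, mig-5, at the top, and the stronger lit-1 peak, next to it, had the same place in the optimal list and in both replicates. lin-17 was at place 7 in the optimal list and at place 8 in both replicates. Summits in the replicates lay at most 49 bp from those in the optimal list.

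**Figure D3:**
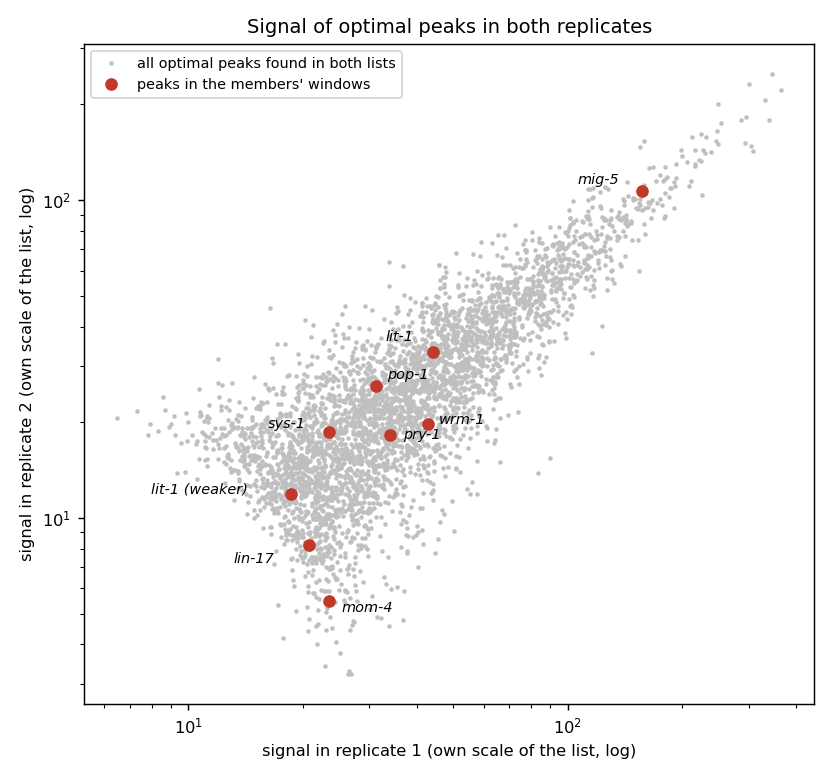
Signal of the optimal peaks in replicate 1 against replicate 2, both on log scales. Grey points are all 3897 optimal peaks present in both lists and red points are the 9 in the windows of the 10 genes. mig-5, with 157 and 107, lies toward the upper end, while mom-4, with 23.5 and 5.48, lies to the side of higher signal in replicate 1.

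The summits at mig-5, pop-1 and mom-4 also lay in the promoter window of another gene, which makes 3 of the 9 shared, and 2 of these, mig-5 with cct-1 and mom-4 with lsl-1, share with a protein-coding gene. Over the 5312 pairs of a protein-coding gene and an optimal peak in its window, 63.6% had the summit in another gene's promoter window and 49.1% in that of another protein-coding gene. The other 6 peaks, at lit-1, wrm-1, sys-1, pry-1 and lin-17, had no other promoter window around the summit. Their upstream coding neighbours lie at gaps from 3234 bp for pry-1 to 8179 bp for lit-1.

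Below the optimal threshold, the windows held 20 further pooled peaks with signals from 9.48 to 22.4. Of their summits, 8 lay upstream of the gene, 10 in introns, 1 in a coding exon and 1 in a 3' UTR. The members nearest to the threshold were mom-4 at 29.9 and the weaker lit-1 peak at 30.7 on the inside, and the pop-1 peak of 22.4 and the lin-17 peak of 21.2 on the outside.

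Letter strings were searched on both strands within 100 bp of each summit, and overlapping matches were counted. GAGAGA occurred at 5 of the 9 summits, namely both lit-1 peaks, sys-1, pry-1 and mom-4, and at 47.5% of all optimal summits. It occurred at 23.6% of the 13061 weaker pooled summits and in 16.4% of windows of 201 bases upstream of genes. It lay 2.5 bp from the summit at pry-1, 10.5 bp at sys-1, 15.5 bp at mom-4, and 24.5 bp and 45.5 bp at lit-1. The members' 5 of 9 stands near the share over all optimal summits. CACGTG occurred at 2 summits, sys-1 at 3.5 bp and pry-1 at 30.5 bp, and at 5.37% of optimal summits, 4.36% of weaker summits and 4.23% of upstream windows. CTTTGA occurred at 2, wrm-1 at 87.5 bp and pry-1 at 46.5 bp, and at 8.64% of optimal summits and 14.6% of upstream windows. TAATTA, the core letters bound by many homeobox proteins, occurred at none of the 9 and at 3.91% of optimal summits, 7.74% of weaker summits and 11.9% of upstream windows. The share of G and C within 100 bp of the member summits ran from 38.3% at wrm-1 to 53.2% at pry-1 with a median of 47.3%. The median was 44.3% over all optimal summits and 32.8% over the upstream windows. The part of base composition in these counts was not tested.

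The 46 genes of a wider Wnt list, which includes the 10, were listed from knowledge of the pathway, with earlier results on these data known. Of the 46, 19 had an optimal peak in the gene window, or 41.3%, and 14 had an optimal summit in a promoter window, or 30.4%. Over all protein-coding genes these shares were 22.5% and 16%, and by gene window 36.2% in the longest length class. Of the 36 that are not among the 10, 11 had an optimal peak in the gene window, or 30.6%, and 7 had an optimal summit in a promoter window, or 19.4%. By role, an optimal peak in the gene window was found at 0 of 5 Wnt ligand genes and 0 of 7 target genes. It was found at 2 of 6 ligand secretion genes, 4 of 6 receptors and 1 of 5 modulators and planar polarity genes. Among cytoplasmic genes 4 of 8 had it, as did 3 of 3 kinase branch genes and 3 of 4 beta-catenins. The group listed as nuclear, which holds pop-1 and par-5, had it at 2 of 2. Beside the 22.5% of all protein-coding genes with such a peak, groups of this size hold too few genes for their counts, the zeros included, to be read as a contrast, and none was tested.

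The strongest other pathway peak was at mom-1, the acyltransferase of Wnt ligands, with a signal of 399.7 and rank 15. It lay in an intron, and the signals of 247 in replicate 1 and 153 in replicate 2 both ranked 15. kin-19, a casein kinase of the complex that controls beta-catenin, had 149.8, rank 325. par-5, a 14-3-3 protein that takes part in POP-1 export, had 116, and hmp-2, the beta-catenin of cell adhesion, had 95.1. vang-1, a planar polarity membrane protein, had 48.9, snx-3, a sorting nexin, 47.0, mom-5, a Frizzled receptor, 37.2, and dsh-2, a Dishevelled, 33.2. The other 3 with a peak, cam-1, tap-1 and lin-18, had lower signals. Not all of these peaks lay at the promoter of the gene named. At mom-1, kin-19, hmp-2, mom-5 and cam-1 the summit of the strongest peak lay outside the gene's own promoter window. That of mom-5 was in its 3' UTR. At par-5, hmp-2, vang-1, snx-3 and tap-1 the summit lay in the promoter window of another gene. At dsh-2 and lin-18 it lay in the gene's own promoter window alone. Both mig-5 and mom-1 exceed the highest of the rest of the list, kin-19, and the ranks of mom-1 and mig-5 are the 2 under 100 in it.

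**Figure D4:**
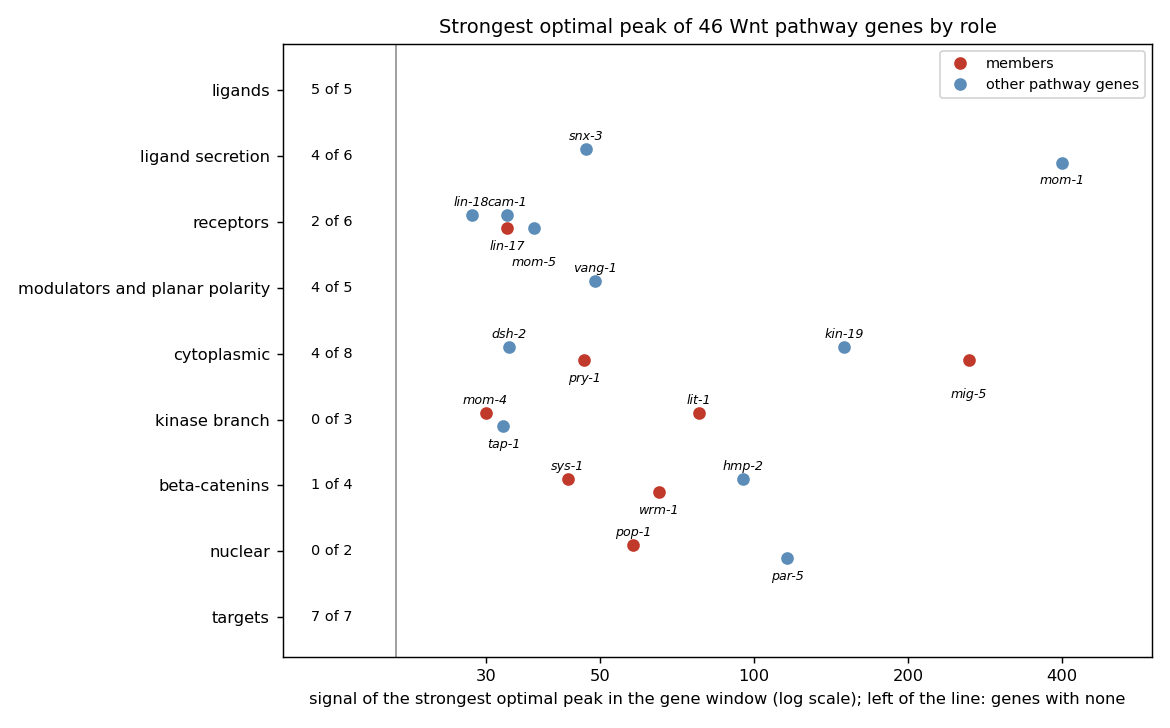
Strongest optimal peak of each of the 46 Wnt pathway genes, grouped by role. The horizontal axis is the signal of the peak on a log scale, red points are the 10 genes described and blue points the others, the numbers left of the line count the genes with no optimal peak, and points of a row are shifted vertically only for legibility. mom-1 and mig-5 stand at the right, and the ligand and target rows hold no point.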

How the data were processed

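The study measured CEH-82 binding by ChIP-seq in 2 biological replicates of whole L1 larvae. The authors deposited narrowPeak lists: 1 per replicate, 1 from the pooled replicates, and an optimal list selected by IDR. According to the read-me files deposited with them, 1 control alignment served both replicates, and the optimal list was made from the other 3. The peak caller's signal value and −log10 q-value were used as deposited. In the optimal list 83.6% of peaks share the highest −log10 q-value, 3.82, so peaks were ranked by signal. The names of aligner and peak caller, and the threshold on IDR, were not given in the sources used here. Read depth is unknown, and p-values were not computed.

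Coordinates are 1-based on ce11. The ce10 lists were not used here. Genes came from Ensembl release 115 and sequence from the RefSeq genome of the same assembly. Overlap meant at least 1 bp. Python 3.11.15, numpy 2.4.6, pandas 2.3.3 and matplotlib 3.10.9 were used. The edges of the windows and the sign of distances were checked on planted positions, which does not test the counting of peaks. The text names the 10 genes, the other genes of the wider list with an optimal peak (up to 8 by highest signal with values), and genes whose promoter window holds a member summit. The members and lists were chosen with earlier results of these data known. Alternatives were other lists, each replicate alone, other gene and promoter windows, peak midpoints, the nearest coding 5' end, stricter overlap and other windows for letter strings.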

Additional observations from a re-analysis of the deposited data

How the results depend on the processing

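Over all counts together there were 50 pairs of a count and an alternative setting, of which 40 stayed within 1.5 times of the reported count. For the number of peaks at each single gene, 50 of 70 such pairs did and 20 did not. With the stronger 1956 optimal peaks, 4 members had a peak in the gene window, 4 peaks remained, 4 members had a promoter summit, and 8 and 5 wider-list genes had a peak by window and by promoter, against 13.1% and 9.41% of all genes. With the full pooled list, 29 peaks lay in member windows, 6 were shared with a neighbour, and 39 and 25 of the 46 wider-list genes had a peak by window and by promoter, against 51.4% and 33.7% of all genes. With top lists of 1956 peaks, 2 of the 9 peaks were held by both replicates. The share of all optimal peaks at that length is not given here, so this count is not read as a result. Nor are shares given for shared peaks outside the optimal list, or for promoter summits in the top list of 1 replicate. With the top list of 1 replicate in place of the optimal list, members with a peak ranged from 6 to 8, peaks from 9 to 10, members with a promoter summit from 5 to 7 and wider-list genes from 17 to 19 and from 12 to 13, with 3 shared peaks either way. In the top list of replicate 2 alone, lin-17 and mom-4 had no peak. Gene windows of 500 bp upstream lost wrm-1, and those of 1000 or 500 bp lost pry-1. Depth limits what can be said of bar-1 and apr-1, whose lack of an optimal peak is a lack in these lists. No paired analysis was possible because the samples form 1 group.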
